A study of Homo sapiens with 12 samples.

Results

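The regions described here are the accessible intervals longer than 100 kb on chromosomes 1 to 22 of HT1080 cells, an established human fibrosarcoma line. They were taken from a peak list made by ATAC-seq, in which a transposase cuts open chromatin and leaves sequencing adapters there. Members were selected on measured length: the end of a line minus its start had to exceed 100 kb. Several lines could give the same borders with different summits, and these counted as 1 interval. This gave 43 of the 91278 intervals in the list, or 0.0471%, which held 44536 of its 188019 summits, or 23.7%. All 43 overlapped 0 genes of the RefSeq table, so the description of them as gene-free held. Since the members were chosen by length, lengths below are a description, and nothing is tested.

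The study embedded HT1080 cells in rat tail type I collagen at 0.3 mg/mL (low), 1 mg/mL (medium) or 1.7 mg/mL (high), with 4 libraries per concentration and 12 in all. Every group received the broad metalloproteinase inhibitor GM6001 at 20 µM and migrated for 48 h, so no group in the series lacked the inhibitor. The list has no column for a library or a concentration. It was therefore read as 1 list for the series, although which libraries went into it is not given. Depth per library is unknown, there are no replicates, and nothing below compares low, medium and high collagen. As a check of the cell label, 6 of 6 mesenchymal markers had a summit within 1000 bp of a gene end, with enrichments of 6.64 (VIM) to 15.1 (FN1). Of 4 epithelial markers 2 had such a summit, EPCAM and CDH3, with an enrichment of 2.11 at the former. Among 4 leukocyte markers CD3E alone had a summit there, with an enrichment of 14.5. Of 2 hepatocyte markers, APOB had 2 such summits, with a highest enrichment of 2.53, and ALB had 0. The share of all genes with such a summit was not computed, so these counts do not by themselves establish the label.

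Human centromeres are built on alpha satellite, a short monomer repeated in tandem over very long stretches. Monomers are often grouped into longer units that are themselves repeated, called higher-order repeats, and the centromeric histone CENP-A sits on part of such arrays. Gene-poor satellite DNA is usually packed as heterochromatin marked by H3K9 methylation. In the GRCh38 assembly the centromere arrays are computed models, which stand for the repeats of a chromosome without giving their true order. Some chromosomes are known to carry nearly identical alpha satellite families, among them chromosomes 1, 5 and 19, chromosomes 13 and 21, and chromosomes 14 and 22. A read from such a repeat can match many places equally well. Bowtie2 is named in the submitters' processing notes, but how it treated such reads, and whether a mapping quality filter was used, is not given in the sources used here. Neither genome sequence nor repeat or centromere annotation was used here, so the kind of repeat in each interval was not determined and no sequence is shown.

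The intervals lay on 19 of the 22 autosomes, in a single gene-free stretch of most chromosomes. With no centromere coordinates, the longest stretch between neighbouring genes of a chromosome stood in for its position, and 37 of the 43 intervals lay inside it. Another 5 intervals, on chromosomes 14, 21 and 22, lay in the second longest stretch, and 1 interval on chromosome 17 lay in neither. A gene-free interval can only lie in a gene-free stretch at least as long, so these counts partly follow from length. On chromosomes 14, 21 and 22 the longest stretch held 0, 0 and 1 intervals of any length, so it may not mark the centromere there. Measured as the middle of the interval over the length of the chromosome, positions ran from 14.8% on chromosome 13 to 49.7% on chromosome 1. Chromosomes 13, 14, 15, 21 and 22 are acrocentric, with the centromere near an end. Positions were 14.8% to 19.2% on the first 3 of these, 24.7% on chromosome 21 and 28.2% and 29.3% on chromosome 22. The last values lay above those on chromosomes 5, 12 and 17, at 26.3% to 27.6%. On chromosomes 16, 19 and 20 the intervals were at 41.2% to 44.4%. The last position seen on a chromosome, in the list or in the gene table, stood for its length.

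**Figure D1:**
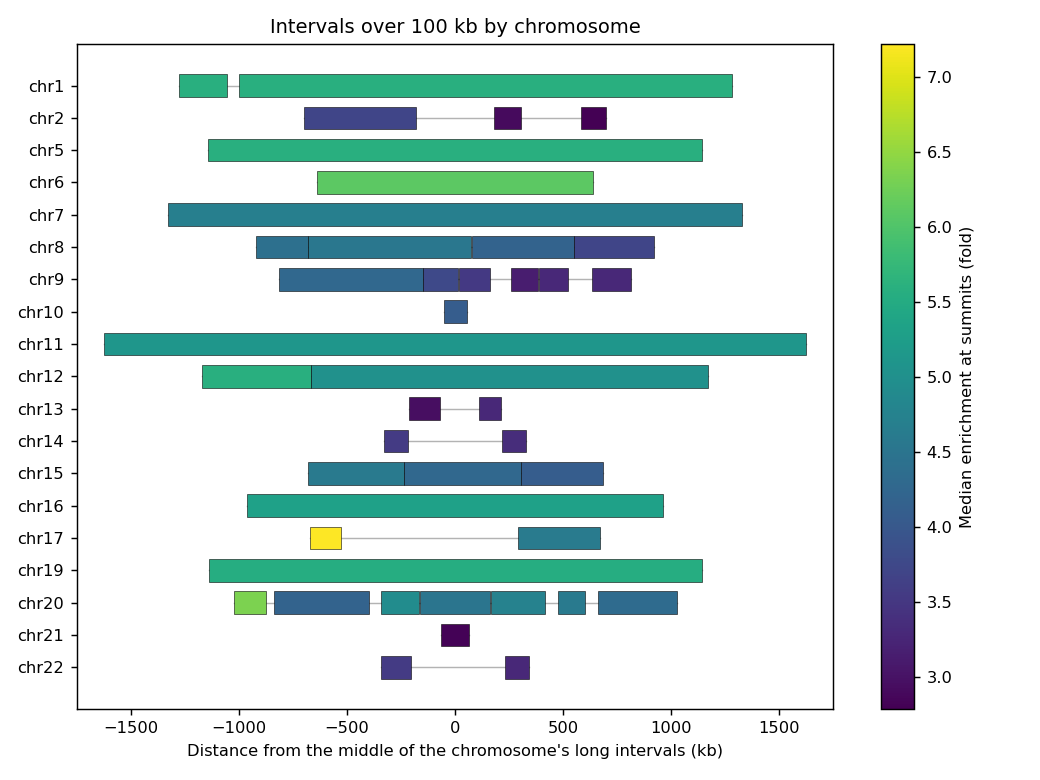
Position of the 43 intervals over 100 kb (bars) on each chromosome, in kb from the middle of that chromosome's long intervals; the grey line joins intervals of a chromosome and colour gives the median fold enrichment at summits. Chromosomes 5, 6, 7, 11, 16 and 19 each have a single unbroken interval over 1 Mb, and the brightest (yellow) bar is the chromosome 17 interval with a median of 7.22.

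Intervals over 1 Mb were found on 8 chromosomes, and they held 30339 summits, 68.1% of those of all members. The chromosome 11 interval (GRCh38 chr11:51092107-54341847, 3250 kb) lay 671 kb from LOC646813 on its left and 250 kb from OR4C50P, an olfactory receptor pseudogene, on its right. On chromosome 7 the interval chr7:58172656-60826991 (2654 kb) filled 85.0% of its gene-free stretch, between LOC102723842 and LOC101060796. Chromosome 5 had chr5:47307471-49591737 (2284 kb), 804 kb to the left of EMB, which encodes embigin. The interval chr19:24908924-27190041 (2281 kb) lay between LOC124904678 and LOC105372345. Chromosome 1 had chr1:122503575-124784327 (2281 kb), between EMBP1, an embigin pseudogene 932 kb to its left, and LOC101929814. These last 3 lengths differed by less than 4 kb.

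Next in length were chr16:36338834-38264543 (1926 kb), between LOC101929923 and ANKRD26P1, and chr12:35346889-37184609 (1838 kb), between AK6P1 and ZNF970P. The interval chr6:58555613-59829779 (1274 kb) lay between RBBP4P4 and PRIM2BP. Chromosome 8 had chr8:44276073-45030273 (754 kb), between CYP4F44P and HSPA8P13, and chromosome 9 had chr9:43400580-44068105 (668 kb), between LOC102724904 and CNTNAP3P4. The remaining intervals of at least 500 kb were chr15:18805493-19343153 (538 kb), chr2:92216207-92735946 (520 kb) and chr12:34841974-35345216 (503 kb). By their names most of these flanking genes are pseudogenes or uncharacterised loci, and several of the gaps to the farther flanking gene exceeded 1 Mb.

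The other 30 intervals were under 500 kb. The longest of these was chr8:45035825-45505875 (470 kb) and the shortest chr13:17158073-17261331 (103 kb). Highest in median enrichment was chr17:21851516-21991955, and lowest chr2:93496530-93616301. Neighbouring intervals were often separated by very little. Of 24 gaps between successive intervals on the same chromosome, 6 were under 2000 bp, the narrowest being 299 bp on chromosome 8. The 3 intervals of chromosome 15 were parted by 774 and 525 bp and filled 99.9% of the span from the start of the leftmost to the end of the rightmost. Chromosomes 8 and 12 were likewise filled to 99.7% and 99.9%. On chromosomes 13, 14, 17 and 22 the members filled 34.0% to 57.9% of their span.

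Chromosomes differed in how far their gene-free stretch was called as long intervals or as shorter ones. Members covered 78.4% of the stretch on chromosome 20, 77.9% on chromosome 11 and 70.4% on chromosome 12, while shorter intervals covered 10.4%, 0.610% and 2.05%. The reverse held on chromosomes 10, 14, 17, 21 and 22, where members covered 3.12% to 10.4% and shorter intervals 39.7% to 68.2% of the stretch with most member length. On chromosome 2 members covered 35.5% and shorter intervals 50.6%, and on chromosome 13 1.38% and 7.95%. Chromosomes 3, 4 and 18 had 0 members. Shorter intervals nevertheless covered 69.2%, 80.8% and 75.6% of their longest gene-free stretches. The longest intervals on these 3 chromosomes were 63011, 68086 and 98692 bp long, with median enrichments of 2.58, 3.35 and 3.42. Assembly gaps were not taken out of the stretches. The member-bearing stretches on chromosomes 1, 9, 13, 15 and 16 exceeded 10 Mb, and members covered 1.38% to 18.6% of them.

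The limit of 100 kb cut through a continuous range of lengths. Just inside it were chr14:17972114-18082695, chr10:41325747-41432739 and chr13:17158073-17261331, with 170, 156 and 164 summits and median enrichments of 3.35, 4.08 and 3.28. Just outside were intervals of 99978 bp on chromosome 1, 99593 bp on chromosome 22 and 98692 bp on chromosome 18, with medians of 6.90, 3.12 and 3.42. The one on chromosome 1 overlapped the gene NBPF20, whereas those on chromosomes 22 and 18 overlapped 0 genes. At 50 kb the number of intervals was 133, and at 200 kb it was 24.

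Enrichment, the authors' fold value at a summit over the background of the peak caller, was moderate at most summits and varied within members. Over all 44536 summits the lowest value was 1.69, the median 5.02 (95% confidence interval 4.97 to 5.02) and the highest 25.1, with quartiles of 4.03 and 6.05. The interval covers the counting of summits only, since summits of 1 interval share their reads. Per interval the median ran from 2.79 to 7.22. The highest medians were 7.22 in chr17:21851516-21991955, 6.35 in chr20:26436603-26585986 and 6.11 in the chromosome 6 interval. At the other end were chr2:93496530-93616301 with 2.79, the chromosome 21 interval with 2.81 and chr2:93094527-93219822 with 2.91. The intervals on chromosomes 20 and 21 and the latter on chromosome 2 were named after their values were seen.

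By chromosome the medians ran from 2.81 to 6.11 without a clear break. Chromosomes 1, 5, 6, 11, 12, 16, 17 and 19 had medians of 5.11 to 6.11. On chromosomes 2, 13, 14, 21 and 22 they were 2.81 to 3.47. Chromosomes 7, 8, 9, 10, 15 and 20 lay between, from 3.71 to 4.69. Of the 8 intervals over 1 Mb, 7 had a median above 5, against 4 of the 35 shorter ones. Across the 43 intervals Spearman's rho between length and median enrichment was 0.635, and between summits per kb and median enrichment 0.554. These are descriptions only: intervals on a chromosome are not independent, and both length and enrichment depend on how much signal was called.

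**Figure D2:**
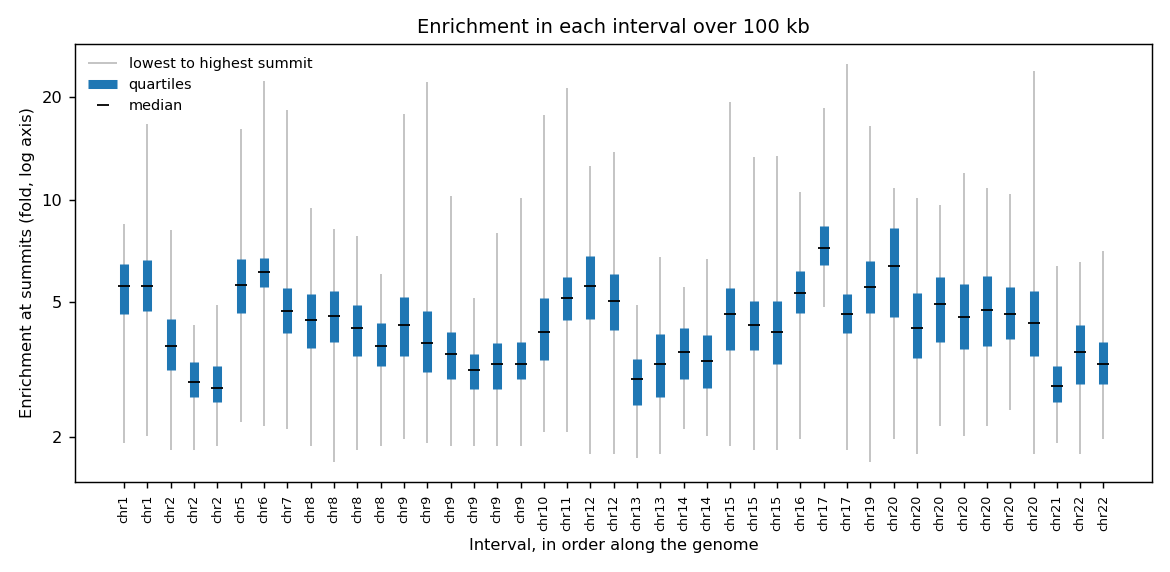
Fold enrichment at summits (log axis) in each of the 43 intervals, in order along the genome, with the median (dash), the quartiles (blue bar) and the lowest and highest summit (grey line). Medians lie between 2.79 and 7.22, while single summits reach 25.1.

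The fragment pileup at each summit and the local background were recovered from the deposited enrichment and p-value, and the pileup came out whole at 100% of member summits. The median pileup was 107 fragments (quartiles 86 and 133). The settings of the peak caller are not given, so fragment here stands for whatever unit it piled up. The lowest background anywhere in the list, 20.3 fragments, served as a genome-wide floor. It applied at 83.1% of member summits (95% Clopper-Pearson interval 82.8 to 83.5), and 20 of the 43 intervals had it at every summit. In 3 intervals under 50% of summits were at the floor. In the chromosome 6 interval 11.5% of summits were at the floor, and in chr20:26436603-26585986 42.7%. In chr17:21851516-21991955 it was 0 of 275 summits. The chromosome 17 interval had a median background of 32.2 fragments, a median pileup of 239 and a highest pileup of 5118, the highest of any member. Its gene-free stretch was 0.261 Mb long, between LOC100996792 at 68.1 kb and LOC100287309 at 52.3 kb.

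The enrichment profile along the members took several shapes. Each interval was divided into 5 equal segments, and the median enrichment of the middle segment was set against that of the outer segments. The ratio had a median of 1.03 over the 43 intervals and ran from 0.787 to 1.29. It was above 1 in 25 intervals and below 1 in 18, and in 22 it was within a factor of 1.1. In the chromosome 11 interval the successive segments had medians of 5.25, 5.30, 5.11, 4.92 and 4.81. The chromosome 6 interval was as level, with 6.09, 6.34, 6.21, 5.96 and 6.01. The chromosome 7 interval had 4.60, 4.88, 4.78, 4.55 and 4.60. Other intervals over 1 Mb were less level. In chr12:35346889-37184609 the medians were 5.77, 5.25, 4.83, 4.64 and 4.81, lower on the right. On chromosome 16 they were 5.39, 5.39, 5.72, 5.44 and 4.74, lowest in the last segment. The chromosome 1 interval had 5.86, 5.24, 5.39, 5.58 and 5.89, chromosome 5 had 5.97, 5.25, 5.35, 5.70 and 5.77, and chromosome 19 had 5.91, 5.11, 5.25, 5.53 and 5.82. In these 3 the middle was lower than the ends, with ratios of 0.894 to 0.918.

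Larger slopes or steps were seen in some shorter members, and those in this paragraph were named after their values were seen. In chr20:26436603-26585986 the segments had medians of 7.30, 7.79, 7.53, 4.74 and 4.64, so its left part was higher than its right. In chr22:14278396-14418338 they were 2.72, 2.70, 3.99, 3.80 and 4.17, with the higher part on the right. The chromosome 17 interval with raised background stayed between 6.81 and 7.32 over the first 4 segments and was at 9.45 in the last. Its median pileups were 260.5, 202.5, 218.5, 211 and 2835 fragments, so pileup rose far more in the last segment than enrichment did. In chr20:26436603-26585986 the median pileups were 235, 294, 253.5, 100 and 98 fragments, again a larger step than in enrichment. In chr1:122226932-122449615 the medians were 5.84, 6.51, 5.60, 4.83 and 4.17. Over all members the last segment was below the first in 20 intervals, above it in 21 and equal to it, within 0.001 of a ratio of 1, in 2; the median ratio was 1.00.

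Enrichment also varied on a finer scale. In windows of 20 kb with at least 10 summits, the highest window of an interval exceeded the lowest by 1.21 to 2.29 times, with a median of 1.70 over the intervals. Intervals had from 5 to 162 such windows, and a ratio of this kind tends to rise with their number. Long and short members are therefore not comparable in it. The ratio was 2.29 in chr12:34841974-35345216, from 3.47 to 7.94, and 1.99 in the chromosome 11 interval, from 3.42 to 6.80. Neighbouring summits had similar enrichments. Spearman's rho between each summit and the next ran from 0.669 in the chromosome 6 interval to 0.913 in the interval chr1:122226932-122449615, and its median over the 43 intervals was 0.833. Summits close together can share fragments, which contributes to such similarity in any pileup; its part here was not tested.

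Summits with an enrichment above 10 were rare, 368 of 44536 or 0.826%. They occurred in 25 of the 43 intervals and on 13 chromosomes, and 0 were found on chromosomes 2, 8, 13, 14, 21 and 22. The share was 5.77% on chromosome 10 (9 summits) and 3.09% on chromosome 17 (29 summits), and at most 1.35% on any other chromosome. Of the 29 on chromosome 17, 26 were among the 275 summits of chr17:21851516-21991955. The other 3 were among the 662 summits of chr17:22815346-23193261. The highest summit of all was at position 23190369 on chromosome 17, where the enrichment was 25.1 from 854 fragments, 2.89 kb from the right end of chr17:22815346-23193261. It was followed by position 28308170 on chromosome 20 (23.9), 58784921 on chromosome 6 (22.3) and 44175528 on chromosome 9 (22.2). The highest summit of the chromosome 11 interval, at 53354127, had an enrichment of 21.3, 4.18 times the interval's median. In 8 of 43 intervals the highest summit lay in the first or last 10% of the interval, close to the share of length in those parts.

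The 44493 distances between neighbouring summits of an interval had a median of 528 bp (95% confidence interval 525 to 531), quartiles of 367 and 765 bp and a range of 60 to 4119 bp. Only 1.69% were under 200 bp and 0.423% over 2000 bp. The standard deviation was 334 bp around a mean of 610.0 bp, so single distances varied widely around it. Median spacing by chromosome ran from 488 bp on chromosome 17 and 495 bp on chromosome 6 to 594 bp on chromosome 8, 600.0 bp on chromosome 15 and 623.5 bp on chromosome 9. Per interval it was shortest, at 449.5 bp, in chr17:21851516-21991955 and longest, at 653.5 bp, in chr2:93094527-93219822. The density was 1.30 to 1.96 summits per kb. The greatest distance between neighbours, 4119 bp, was on chromosome 9.

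**Figure D3:**
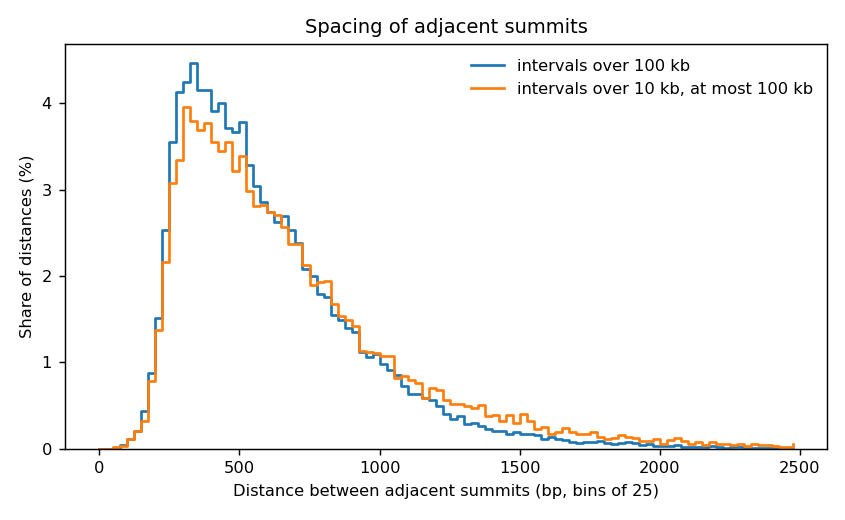
Share of distances between adjacent summits (%, bins of 25 bp) in intervals over 100 kb and in autosomal intervals of 10 to 100 kb. Both curves peak between 300 and 400 bp, and the medians are 528 and 579 bp.

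Whether the summits kept a regular step was examined with a power spectrum of their positions, in which a value of 1 stands for positions without order. Between 100 and 300 bp the spectrum over all members had a single tall line, at a period of 170.0 bp, with a power of 1.50. At periods in that range more than 5 bp away the highest power was 1.13 and the median 1.00. The resolution of the spectrum at this period was 0.882 bp. Between 300 and 6000 bp the spectrum was set against a baseline, the median power over a wide band of periods. Relative to this it was highest at 340.4 bp, close to 2 × 170.0 or 340.0 bp, with a ratio of 1.24. That ratio barely exceeded those of other local maxima, at 314.3 bp (1.22), 351.4 bp (1.20) and 361.1 bp (1.20). Power itself was 1.19 at 340.4 bp, against 1.12 at 335.2 bp and 1.12 at 346.8 bp. The histogram of distances between all pairs of summits also had its highest peak in that range at 340 bp, at 1.18 times the running median. That peak was not stable: with a running median of another width the highest peak was at 4245 bp. Between 100 and 300 bp the same histogram was highest at 299 bp, the end of that range, and not at 170.0 bp. Distances of adjacent summits were also most frequent between 325 and 350 bp. Their part in the peak at 340 bp was not tested.

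The period was not shared by all chromosomes. On 10 of the 19, the power within 1 bp of 170.0 bp exceeded that at every other period between 100 and 300 bp. It was 2.02 on chromosome 1, 1.93 on chromosome 19, 1.88 on chromosome 5 and 1.86 on chromosome 9, where the highest power elsewhere was 1.28 to 1.40. Chromosome 12 had 1.58 against 1.31 elsewhere, chromosome 16 1.48 against 1.34 and chromosome 7 1.44 against 1.24. On chromosomes 2 and 15 the margin was small, 1.62 against 1.53 and 1.40 against 1.34. Chromosome 21 had 3.18 against 2.79, from 6 windows. With so few windows, as also on chromosomes 10, 13, 14 and 22, the spectrum is noisy at all periods.

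Chromosome 11, the chromosome with most summits in members, had no such line: its power near 170.0 bp was 1.06, with 1.34 elsewhere. On chromosomes 17 and 6 the power near 170.0 bp was also below the highest elsewhere, 1.11 against 1.55 and 1.21 against 1.41. Chromosome 17 had only 28 windows, and its 1.55 elsewhere was as high as the pooled line. Absence of a line therefore cannot be read there. On chromosomes 8 and 20 the power near 170.0 bp was 1.23 and 1.24 against 1.31 and 1.30 elsewhere. On chromosome 7 the spectrum between 300 and 6000 bp was highest at 340.4 bp, at 1.76 times its baseline. Within 4 bp of 340.0 bp the ratio was higher on chromosomes 10 and 21 (2.77 and 1.95), on 5 and 6 windows against 160 on chromosome 7. Chromosome 9 had its highest value at the same period (1.44), and chromosomes 16 and 20 had theirs at 338.7 and 344.0 bp (1.60 and 1.65). Some pair-distance peaks were at longer lags, each the highest of all lags from 300 to 6000 bp on its chromosome. On chromosome 7 it was at 3103 bp, 1.57 times the running median, from 105 pairs. On chromosome 6 it was at 3040 bp, 1.53 times, from 72 pairs. Every chromosome gives some highest lag, and ratios of this size were found at unlike lags. Chromosomes 8 and 16 had theirs at 5444 bp (1.625 times) and 1677 bp (1.50 times). On chromosomes 1, 5 and 19, whose intervals are compared below, the lags were 344, 2051 and 316 bp (1.46, 1.57 and 1.45 times). These peaks therefore do not by themselves establish a long repeat. Relative to the baseline, no period beyond 500 bp was the highest in the spectrum of any chromosome. At long periods that baseline came mostly from shorter ones, and pooled power was already 0.853 at 598.5 bp. The ranking therefore says little about longer periods. For the difference between chromosomes in the strength of the line there was no test.

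**Figure D4:**
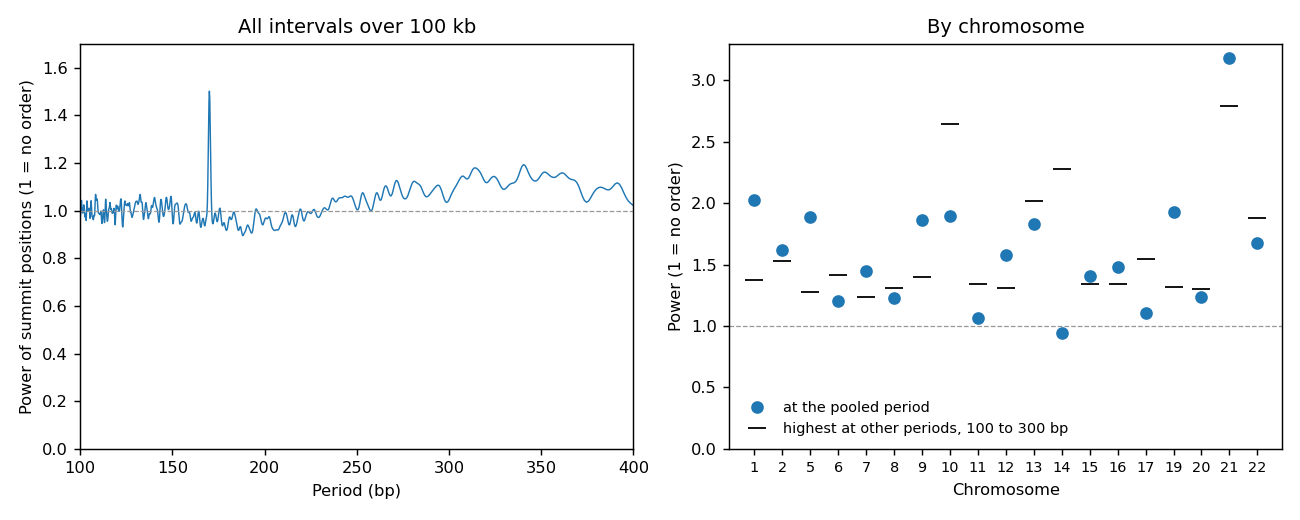
Left, power of summit positions (1 = no order) against period in bp over all members; right, for each chromosome, the power within 1 bp of the pooled period (blue) and the highest power at other periods from 100 to 300 bp (black dash). The line at 170.0 bp reaches 1.50 over all members; it is above the dash on 10 chromosomes and below it on chromosomes 6, 8, 11, 17 and 20, among others.

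The intervals on chromosomes 1, 5 and 19 carried closely similar patterns of summits. All 903 pairs of members were compared by sliding one set of summit positions along the other and counting summits within 25 bp of each other at the best offset. For chromosomes 1 and 5, 1886 of 4073 summits (46.3%) had a partner at an offset of 2040 bp from the interval starts. When the offset was moved by 1 to 10 kb, 9.45% had one. For chromosomes 1 and 19 it was 1889 of 4073 (46.4%) at an offset of 93 bp, and for chromosomes 5 and 19 1895 of 4055 (46.7%) at -1949 bp. With partners allowed within 50 bp the shares were 64.4% to 65.5%. Of the 4073 chromosome 1 summits, 1238 (30.4%) had a partner within 25 bp in both of the other intervals, and 2537 (62.3%) in at least 1 of them.

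Enrichment went along with position. At the 1886 matched summits of chromosomes 1 and 5, Pearson's r of the enrichment was 0.928 and Spearman's rho 0.900, and the median ratio was 1.00. The coefficients for the other pairings were 0.931 and 0.901 for chromosomes 1 and 19, and 0.928 and 0.907 for chromosomes 5 and 19. In 114 windows of 20 kb the profiles had a Pearson's r of 0.890 to 0.903, with lowest windows of 3.59 to 3.80 and highest windows of 7.51 to 7.61. The summit at 123175996 on chromosome 1, the highest of its interval, had an enrichment of 16.7; its partners at 47981938 on chromosome 5 and 25581443 on chromosome 19 had 16.0 and 16.2. Position 124377240 on chromosome 1 had 16.5, and its partners 16.1 and 15.8. All 20 of the highest chromosome 1 summits had a partner within 28 bp in both other intervals, and those partners ranked 32 or higher in their own interval. These correlations are descriptions across summits of 1 list. How a read that matches more than 1 of the 3 intervals was placed is not given in the sources used here.

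**Figure D5:**
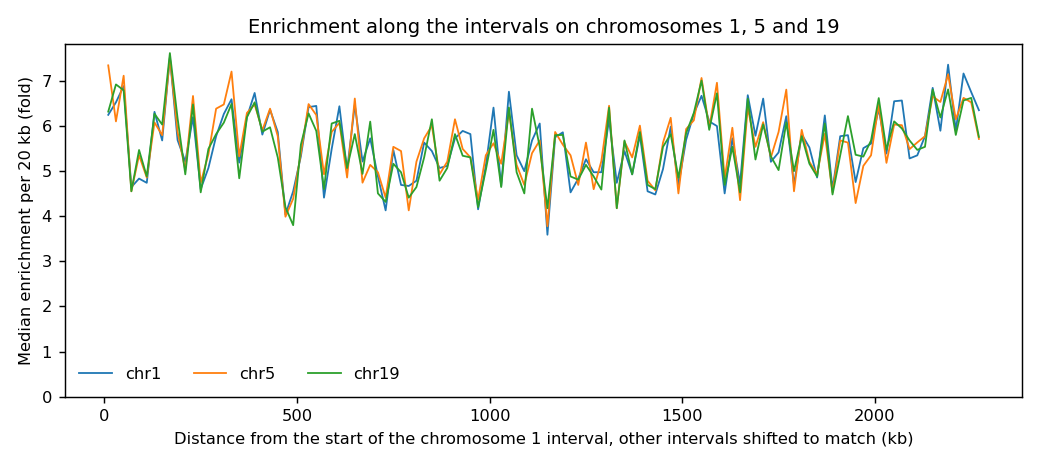
Median fold enrichment in windows of 20 kb along the 3 intervals on chromosomes 1, 5 and 19, in kb from the start of the chromosome 1 interval, with the others shifted by 2040 and 93 bp. The 3 lines rise and fall at the same places over 114 windows (Pearson's r 0.890 to 0.903).

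A weaker match linked chromosomes 14 and 22, whose intervals were named after the comparison. Of 196 summits in chr14:17423795-17537201, 70 (35.7%) had a partner in chr22:14278396-14418338 at an offset of 26195 bp, against 8.93% at moved offsets. Of 170 summits in chr14:17972114-18082695, 57 (33.5%) had a partner in chr22:14849895-14964765 at an offset of 3019 bp, against 7.77%. The enrichments at these matched summits had Pearson's r of 0.877 and 0.857. These made 5 pairs with a match, counting the 3 among chromosomes 1, 5 and 19. Among the other pairs with at least 100 summits in the overlap, the highest share was 26.3%. With the order of summits in 1 of the intervals reversed, the highest share among pairs of that size was 25.9%. Chromosomes 13 and 21 gave 17.7% over 203 summits and 23.9% over 67 summits.

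The matched intervals are not independent members, and those on chromosomes 1, 5 and 19 held 4073, 4058 and 4041 summits. Without chromosomes 5 and 19 the period was still 170.0 bp, with a power of 1.42, and without all 3 chromosomes 1.34. The median enrichment of members without chromosomes 5 and 19 was 4.88.

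The 679 autosomal intervals of over 10 and at most 100 kb were the class next in length. They held 26547 summits with a median enrichment of 3.28 (quartiles 2.63 and 4.60) and a median pileup of 69 fragments, against 5.02 and 107 in the members. The share of summits at the background floor was 82.3% in them and 83.1% in members. Median spacing was 579 bp, and 1.65% of distances exceeded 2000 bp, against 0.423% in members. In the 181 of these intervals long enough for the spectrum, the highest power was also at a period near 170 bp (170.2 bp), but at 1.27 against 1.23 elsewhere the margin was small, over 322 windows compared with 1591 for the members. In intervals of at most 10 kb the medians were 3.89 for enrichment, 107 fragments for pileup, the same as in members, and 432 bp for spacing. In them 34.4% of summits were at the floor and 16.2% had an enrichment above 10, against 0.826% in members. These differences between length classes were not tested, because the classes were made from the same signal that gives the values.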

How the data were processed

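The data were 1 deposited peak list from a series of 12 ATAC-seq libraries, with no header and no sample column. Per the submitters' processing notes, fastp 0.20.0, Bowtie2 2.4.3, SAMtools, deepTools 3.5.0, MACS2 2.2.7.1 and build hg38 were used; their settings, any pooling, duplicate removal and mapping quality filter are not given in the sources used here. The deposited enrichment is a ratio (fold) at the summit, the deposited p-value and q-value are on the −log10 scale, and the deposited score was 10 times the −log10 q, truncated, in 99.8% of lines.

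Pileup P and background B were solved from enrichment = (P + 1)/(B + 1) and p as a Poisson tail, a model tested on the values: P was whole, within 0.05, in 99.96% of all lines. A background within 0.2% of the lowest counted as the floor. Power spectra used Hann windows of 32768 bp overlapping by 50%; the windows and the comparison of positions between intervals were chosen after the data were examined. The longest gene-free stretch came from the RefSeq table for GRCh38.p14 (59792 entries). Positions are 1-based. Python 3.11.15, numpy 2.4.6, pandas 2.3.3 and scipy 1.17.1 were used, and the scripts were tested on simulated data.

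Intervals of 500 kb or longer were named, with the longest, the shortest, and those of highest and lowest median enrichment among the rest; genes flanking the 10 longest were named, except that 1 is not reported here. The members and lists were chosen with earlier results of these data known. Comparisons between collagen concentrations could not be made from a list without sample columns. Intervals cover counting error only. Reads that match many places can be spread over repeats or dropped, and either would alter enrichment, summit positions and interval length here.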

Additional observations from a re-analysis of the deposited data

Results flagged for a closer look

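Intervals over 100 kb also occurred on sequences that the comparisons above did not use, and the list has no control library to set them against. Chromosome Y carried 2 of them, with 591 summits in all; their median enrichments were 8.12 and 7.94 and their median pileups 708 and 702 fragments, above the medians of every autosomal member. The unlocalised sequence chr22_KI270736v1_random carried 1 with 272 summits, where the medians were 8.04 for enrichment and 819 fragments for pileup. The unlocalised sequence chr17_KI270730v1_random carried 1 with 160 summits, where they were 4.60 and 102, within the range of the autosomal members.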

How the results depend on the processing

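Of 29 alternatives to the 9 main results, 15 left the value within its interval, resolution or a factor of 1.5, and 14 did not. The number of intervals was 133 over 50 kb, 24 over 200 kb and 71 when intervals within 10 kb of each other were merged. Median spacing was 533 bp over 50 kb. The highest pair-distance peak between 100 and 300 bp was at 299 bp, the end of that range, and the long peak moved to 4245 bp with a narrower and also with a wider running median. Median enrichment was 5.07 at −log10 q of at least 10, 4.27 with each interval counted once, 4.83 over 50 kb, 5.11 over 200 kb and 4.88 without chromosomes 5 and 19. The share of summits at the background floor was 83.7% at a tolerance of 1% and 82.4% at −log10 q of at least 10. With −log10 q of at least 10, the median enrichment stayed within its interval on 10 of 19 chromosomes and moved on 9, by at most 1.14 times (chromosome 13, from 3.05 to 3.47). On chromosomes 2, 8, 13, 14, 21 and 22 all summits were at the background floor, where q rises with enrichment. Leaving out low q could there only keep or raise the median. Beyond that, the cause of these moves was not tested. Alternatives without chromosomes 5 and 19, with shorter windows, with the spectrum for the long period and with the 2 longest stretches were chosen after seeing the data. No paired analysis was possible because the list holds no value per library; for the same reason no replicate could be left out. Depth per library is unknown.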
